A study of Mus musculus with 24 samples.

Results

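The genes described here are Cd40, Cd80, Cd86, Icosl, Cd274, Pdcd1lg2, Havcr2 and Vsir, which encode surface proteins through which macrophages stimulate or restrain T cells. They were chosen by symbol: a row of the count files belonged to the set when its Ensembl identifier carried one of these symbols in the GENCODE M21 annotation. All 8 were found, 8 of 43629 rows, and all 8 passed the filter on low counts. Pdcd1lg2 passed it only through the groups in which it was high.

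The cells were bone marrow-derived macrophages from wild-type C57BL/6 mice, grown from bone marrow for 7 days with CSF-1 at 20 ng/mL, the growth factor that every group also received during stimulation. RNA was taken 1 h or 18 h after no stimulus, LPS, LPS with IFNg, or IL-4, with 3 libraries in each of the 8 groups. LPS, a component of bacterial outer membranes, was given at 20 or 100 ng/mL, and the labels do not say which dose a library received. Between groups with LPS, a difference in dose thus cannot be told apart from added IFNg or from time. IFNg was given at 50 ng/mL and IL-4 at 20 ng/mL. The labels do not say whether the 3 libraries of a group came from separate mice or cultures, so p-values reflect only how these libraries vary, and that variation may be technical.

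A T cell that meets its antigen needs a second signal from the presenting cell. CD80 and CD86 give it through CD28 on the T cell and are taken over by CTLA-4 when responses are curbed, ICOSLG gives a related signal through ICOS, and CD40 is the receptor by which the presenting cell itself is activated by CD40L on T cells. PD-L1 (Cd274) and PD-L2 (Pdcd1lg2) bind PD-1 and inhibit T cells, VISTA (Vsir) is an inhibitory member of the same B7 family, and TIM-3 (Havcr2) is an inhibitory receptor found on exhausted T cells and also on macrophages and dendritic cells. LPS acts through Toll-like receptor 4 and NF-kB, IFNg through JAK kinases and IRF1, and IL-4 through STAT6.

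Each library held between 4181890 and 8122945 counts. Levels are given as CPM (counts scaled to a common library size) scaled by TMM, a normalization that assumes most genes do not change, and a gene was called when its adjusted p from edgeR's quasi-likelihood test was below 0.05. With scaling to the total count alone, the median log2 change of all genes moved to between -0.54 and -0.19 in the LPS and LPS with IFNg comparisons with unstimulated cells, so small changes depended on the scaling. The macrophage markers Adgre1, Csf1r, Cd68, Itgam, Lyz2, Mertk, Fcgr1 and Cd14 were expressed, summing to 10200 to 25660 CPM per library. Replicate 2 of LPS at 18 h and replicate 2 of IL-4 at 18 h differed most from the other libraries of their groups, by a chi-square of counts over genes. Without these 2 libraries, all 56 log2 changes of the 8 genes in the comparisons that use their groups kept their direction and their side of the threshold. Replicate 3 of unstimulated cells at 18 h and replicate 3 of IL-4 at 18 h had reads in 19108 and 17808 genes, against 15450 to 16775 in the other 22 libraries. Without these, 60 of 64 log2 changes kept direction and side, 3 values that were not called changed sign, and Icosl between the times in unstimulated cells became a call (0.63, adjusted p = 0.027).

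Cd274 (ENSMUSG00000016496) lies on chromosome 19 at 29367455 to 29388095 of GRCm38, and Pdcd1lg2 (ENSMUSG00000016498) follows on the same strand at 29410919 to 29471161, with 22.8 kb between them. The other genes are Cd40 (ENSMUSG00000017652, chromosome 2, 165055627 to 165072948), Cd80 (ENSMUSG00000075122, chromosome 16, 38455561 to 38496335), Cd86 (ENSMUSG00000022901, chromosome 16, 36603869 to 36666081, the only one on the minus strand), Icosl (ENSMUSG00000000732, chromosome 10, 78069302 to 78083913), Havcr2 (ENSMUSG00000020399, chromosome 11, 46454935 to 46481255) and Vsir (ENSMUSG00000020101, chromosome 10, 60346851 to 60372684). All are protein coding. The 250 bases upstream of the transcription start of the PD-1 ligand pair are shown because these neighbours were highest under different stimuli. Pdcd1lg2 was highest with IL-4 at 18 h and Cd274 with LPS and IFNg at 18 h. IL-4 raised Cd274 too, by 1.73 at 1 h and 1.61 at 18 h on the log2 scale. The sequences are from RefSeq on GRCm38.p6, plus strand, at chr19:29367188-29367437 for Cd274 and chr19:29410669-29410918 for Pdcd1lg2, and capitals mark motif matches.
Cd274: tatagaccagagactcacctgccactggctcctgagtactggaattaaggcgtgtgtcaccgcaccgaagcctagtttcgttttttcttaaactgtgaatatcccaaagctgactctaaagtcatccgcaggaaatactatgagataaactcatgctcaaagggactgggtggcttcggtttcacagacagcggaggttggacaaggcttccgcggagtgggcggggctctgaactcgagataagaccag
Pdcd1lg2: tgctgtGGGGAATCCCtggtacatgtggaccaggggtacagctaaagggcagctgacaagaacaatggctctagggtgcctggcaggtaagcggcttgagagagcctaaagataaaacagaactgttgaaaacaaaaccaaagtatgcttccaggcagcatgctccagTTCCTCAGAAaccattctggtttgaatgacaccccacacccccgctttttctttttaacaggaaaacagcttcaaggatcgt

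A search of both strands covered the STAT6-type motif TTCNNNNGAA, the interferon-stimulated response element core GAAANNGAAA and the NF-kB consensus. Pdcd1lg2 held TTCCTCAGAA, a STAT6-type match, at -82 to -73 from its start, and GGGGAATCCC, an NF-kB match on the reverse strand, at -244 to -235. Cd274 held none of these motifs in this window, and neither did Cd80, Icosl, Havcr2 or Vsir, the other genes with a promoter entry. Of 32851 promoter windows of this length, 5.85% held the STAT6-type motif, 5% the NF-kB consensus and 2.98% the response element core, so single matches are common and describe letters only.

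After 1 h of LPS, 3 of the 8 genes were higher and 1 was lower than in unstimulated cells, against 10.8% higher and 11.4% lower of all 12765 tested genes (22.2% in either direction). After 18 h of LPS, 5 were higher and 3 lower, against 31.8% and 31.3% of tested genes (63.1% in all). LPS with IFNg gave 4 higher and 1 lower at 1 h, against 14.7% in each direction (29.4% in all). At 18 h it gave 6 higher and 1 lower, against 36.1% in each direction (72.2% in all). IL-4 gave 5 higher and none lower at 1 h, against 3.22% and 3.27% of tested genes (6.49% in all). At 18 h it gave 4 higher and 3 lower, against 19% and 20.1% (39.2% in all). The counts for LPS and LPS with IFNg at 18 h and for IL-4 at both times include Pdcd1lg2, which passed the filter only through its high groups. With LPS at 18 h most tested genes were called, so a called member is no exception there. The comparisons with unstimulated cells at one time share the same 3 control libraries.

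**Figure D1:**
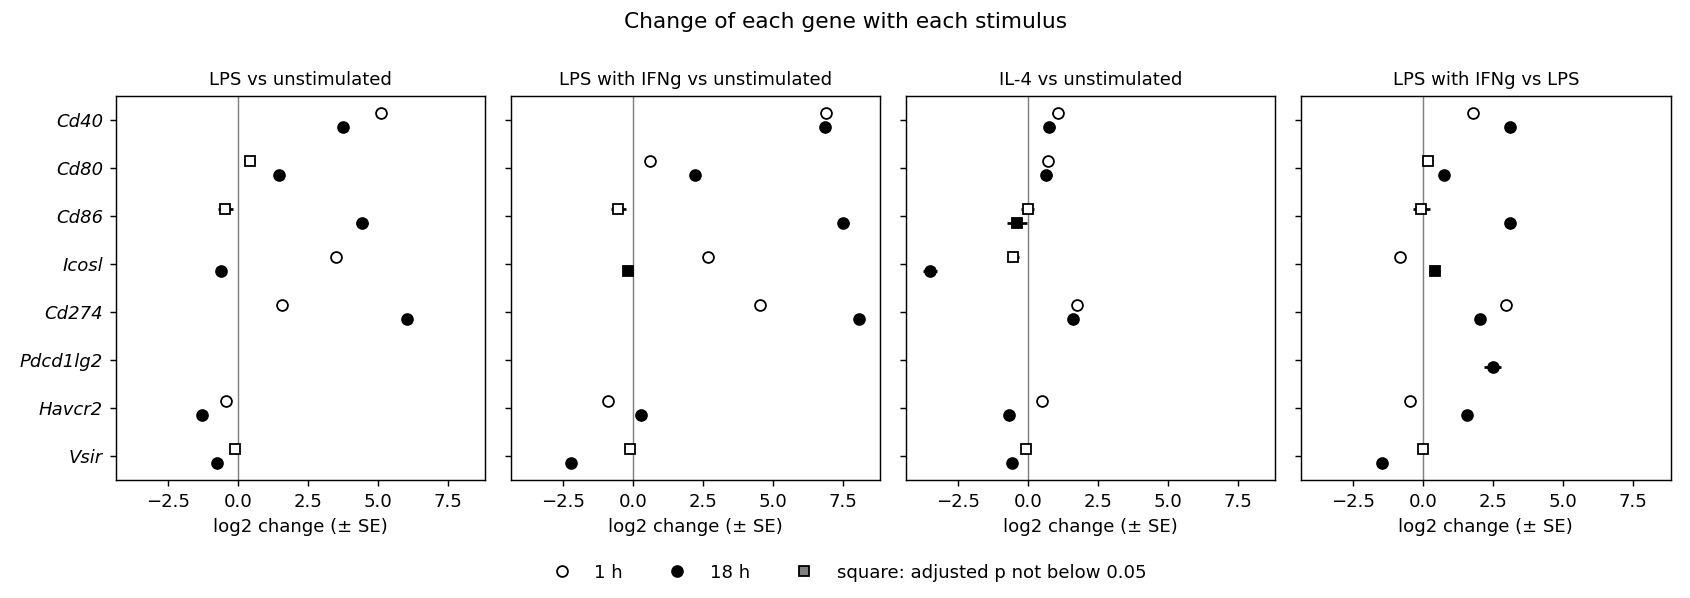
Log2 change ± SE (horizontal axis) of each gene with LPS, LPS with IFNg and IL-4 against unstimulated cells, and with LPS and IFNg against LPS, at 1 h (open) and 18 h (filled), 3 libraries per group; squares are changes with an adjusted p not below 0.05. Cd40 and Icosl rose at 1 h of LPS, Cd86 and Cd274 reached their highest values at 18 h; Pdcd1lg2 is drawn only for LPS with IFNg against LPS at 18 h, because the other contrasts rest on groups with 1 or 2 counts.

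Cd40 was among the fast genes. In unstimulated cells it stood at 6.64, 6.17 and 6.95 CPM at 1 h, against 228, 213 and 239.7 CPM after 1 h of LPS and 799, 695 and 854 CPM after 1 h of LPS with IFNg. The groups did not overlap, and the changes were 5.11 (SE 0.15, 34.5-fold, adjusted p = 1.1e-21) with LPS and 6.89 (SE 0.15, 119-fold, adjusted p = 3.1e-25) with LPS and IFNg on the log2 scale. At 18 h unstimulated cells gave 8.30, 6.12 and 7.52 CPM, LPS 96.5, 120.7 and 77.0 CPM, and LPS with IFNg 829.7, 926 and 773 CPM. The LPS libraries at 18 h thus lay below those at 1 h, while the levels with IFNg were in the same range at both times. The LPS response was smaller at 18 h than at 1 h by 1.36 (SE 0.26, adjusted p = 4.8e-05), whereas the LPS with IFNg response differed by -0.04 (SE 0.25, adjusted p = 0.89). IL-4 gave a small rise to between 13.1 and 14.3 CPM at 1 h and between 10.01 and 14.7 CPM at 18 h, a change of 1.06 (SE 0.20, adjusted p = 0.00044) and 0.76 (SE 0.20, adjusted p = 0.0027), with no overlap with unstimulated libraries.

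Cd86 encodes a ligand of CD28 and CTLA-4, and its level rose with LPS and with LPS and IFNg at 18 h, not at 1 h. At 1 h its libraries overlapped in all 4 groups: 6.61 to 12.6 CPM unstimulated, 5.75 to 7.64 CPM with LPS, 5.38 to 8.26 CPM with LPS and IFNg and 5.69 to 13.3 CPM with IL-4. None of the 1 h changes from unstimulated cells was called (adjusted p 0.27, 0.14 and 1 in edgeR's test for LPS, LPS with IFNg and IL-4). At 18 h unstimulated cells gave 2.54, 3.58 and 4.55 CPM, LPS 78.4, 90.5 and 64.1 CPM, and LPS with IFNg 663, 685 and 629 CPM. Each stimulated group stood clear of the one before it, with changes from unstimulated cells of 4.43 (SE 0.21, 21.5-fold, adjusted p = 1.3e-17) and 7.52 (SE 0.19, 183-fold, adjusted p = 1.7e-24). IL-4 at 18 h gave 2.64, 2.67 and 2.90 CPM, within the range of unstimulated cells (log2 change -0.39, SE 0.35, adjusted p = 0.41). The difference between the 18 h and the 1 h response was 4.88 (SE 0.35, adjusted p = 7.7e-13) for LPS and 8.03 (SE 0.34, adjusted p = 5.5e-18) for LPS with IFNg. Scaling to the total count alone, or testing without the filter on low counts, made the 1 h decrease with LPS and IFNg a call (-0.78, adjusted p = 0.0091, and -0.52, adjusted p = 0.034, against -0.51 here), as did leaving out unstimulated replicate 2 (-0.72, adjusted p = 0.04). Scaling to the total count also made the 1 h decrease with LPS alone a call (-0.64, adjusted p = 0.05 after rounding, against -0.45 here).

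Cd80, the other CD28 and CTLA-4 ligand, moved in the same direction at 18 h over a narrower range. It stood at 4.23, 5.52 and 5.02 CPM in unstimulated cells at 18 h, at 13.5, 13.3 and 14.4 CPM with LPS, and at 21.4, 22.8 and 24.8 CPM with LPS and IFNg. The 3 groups were separate, with changes of 1.47 (SE 0.19, adjusted p = 1.2e-07) and 2.21 (SE 0.18, adjusted p = 2.7e-12). IL-4 raised it at 1 h from 8.02, 6.32 and 10.5 CPM to 13.2, 11.2 and 15.8 CPM (log2 change 0.72, SE 0.17, adjusted p = 0.0055) and at 18 h to 8.62, 8.36 and 6.26 CPM (0.66, SE 0.20, adjusted p = 0.01). These IL-4 calls were weak: that at 1 h was lost without unstimulated replicate 2 (0.55, adjusted p = 0.075) or IL-4 replicate 3 (0.60, adjusted p = 0.056), and that at 18 h without unstimulated replicate 1 (0.56, adjusted p = 0.053). LPS at 1 h gave 9.16, 11.7 and 12.3 CPM, which overlapped the unstimulated libraries and was not called (0.43, SE 0.19, adjusted p = 0.12), except without unstimulated replicate 3 (0.61, adjusted p = 0.029). LPS with IFNg at 1 h gave 10.2, 12.6 and 14.4 CPM, which also overlapped the controls and was called (0.60, SE 0.18, adjusted p = 0.0098), but not with scaling to the total count (0.34, adjusted p = 0.11), without unstimulated replicate 2 (0.44, adjusted p = 0.087) or without LPS with IFNg replicate 3 (0.48, adjusted p = 0.087). Per kb of exon, the ratio of Cd86 to Cd80 lay between 0.607 and 0.917 in unstimulated libraries at 18 h, between 4.51 and 6.86 with LPS, and between 25.6 and 31.3 with LPS and IFNg.

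Icosl, which encodes the ligand of ICOS, showed a transient rise. Unstimulated libraries held 7.19, 10.3 and 7.13 CPM at 1 h, LPS libraries 97.3, 85.1 and 99.1 CPM, and LPS with IFNg libraries 53.7, 50.8 and 52.8 CPM. None of these groups overlapped: LPS raised the gene by 3.50 (SE 0.14, 11.3-fold, adjusted p = 1.1e-18), LPS with IFNg by 2.67 (SE 0.15, adjusted p = 1.5e-15), and the level with IFNg was lower than with LPS alone by 0.84 (SE 0.11, adjusted p = 1.1e-06). By 18 h LPS libraries gave 8.18, 8.76 and 6.24 CPM, below the unstimulated 12.5, 13.1 and 9.25 CPM (log2 change -0.59, SE 0.19, adjusted p = 0.0065); this call was lost without LPS replicate 3 (-0.46, adjusted p = 0.052). LPS with IFNg at 18 h gave 9.16, 9.86 and 11.7 CPM, overlapping the controls (-0.19, SE 0.17, adjusted p = 0.33), although scaling to the total count gave -0.72 (adjusted p = 0.00041), with the median of all genes then at -0.54. IL-4 at 1 h gave 5.06, 6.73 and 5.64 CPM (-0.52, SE 0.20, adjusted p = 0.16). IL-4 at 18 h left 0.556, 1.56 and 0.764 CPM, from 4, 14 and 5 counts, all far below the controls (-3.50, SE 0.26, 11.3-fold lower, adjusted p = 5.3e-12). The highest of these 3 was replicate 2, a library that stood apart, and without it and LPS replicate 2 the decrease was -4.11 (adjusted p = 1e-11).

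Cd274 was the most abundant of the genes after 18 h with LPS. Unstimulated libraries held 28.1, 25.7 and 30.4 CPM at 1 h, LPS libraries 80.8, 71.4 and 98.6 CPM, LPS with IFNg libraries 623, 658 and 678 CPM, and IL-4 libraries 86.5, 85.9 and 107 CPM. LPS and IL-4 libraries overlapped each other, and both lay above the controls and below LPS with IFNg. The changes at 1 h were 1.58 (SE 0.13, adjusted p = 3.4e-11) with LPS, 4.54 (SE 0.13, 23.3-fold, adjusted p = 5.7e-23) with LPS and IFNg, and 1.73 (SE 0.13, adjusted p = 8.8e-12) with IL-4. At 18 h unstimulated libraries gave 14.2, 18.9 and 19.3 CPM, LPS 1303, 1032 and 1162 CPM, LPS with IFNg 4713, 4767 and 4846 CPM, and IL-4 61.7, 46.1 and 53.6 CPM. The 4 groups were separate, and the changes from unstimulated cells were 6.05 (SE 0.13, 66.4-fold, adjusted p = 3.6e-25), 8.09 (SE 0.14, 272-fold, adjusted p = 1.2e-27) and 1.61 (SE 0.14, 3.05-fold, adjusted p = 1.1e-10). The IL-4 response did not pass the test of a difference between the times (-0.12, SE 0.19, adjusted p = 0.71). An antisense gene, AC119228.1, overlaps 511 bases of Cd274 exons, 14.1% of them; it was not analysed here, and whether the counting used strand is not given in the sources used here.

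Pdcd1lg2, encoding the other PD-1 ligand, was highest with IL-4 at 18 h and next highest with LPS and IFNg at 18 h. In 4 groups the sums over 3 libraries were 2 counts (unstimulated, 1 h), 2 counts (unstimulated, 18 h), 1 count (LPS, 1 h) and 1 count (LPS with IFNg, 1 h), no more than the floor of 3 counts. IL-4 libraries held 17, 13 and 19 counts at 1 h (2.10, 2.24 and 3.15 CPM) and 117, 105 and 73 counts at 18 h (16.3, 11.7 and 11.2 CPM). IL-4 was the only stimulus under which this gene exceeded the floor at 1 h. As a ratio of summed counts per summed library size, with an exact 95% interval that covers counting error only, the level with IL-4 was 23.8 times that of unstimulated cells at 1 h (6.25 to 202) and 123 times at 18 h (33.8 to 1023). At 18 h LPS gave 6, 7 and 8 counts, and LPS with IFNg 47, 40 and 41 counts, a ratio to unstimulated cells of 12.7 (3.10 to 112) and 71.5 (19.4 to 597). IL-4 libraries at 18 h stood above those of LPS with IFNg without overlap (log2 change 0.79, SE 0.19, adjusted p = 0.00039), the reverse of Cd274, which was lower by 6.48 (SE 0.13, adjusted p = 8.4e-27) in the same comparison. Per kb of exon, Pdcd1lg2 made up 31.1% of the summed level of both PD-1 ligands after 18 h of IL-4 and 4.67% after 1 h, against 0.291% after 18 h of LPS with IFNg. The antisense gene A930007I19Rik overlaps the span of Pdcd1lg2 without sharing an exon base. Its level was 11.5 ± 1.59 CPM (SD, n = 3) after 18 h of LPS and 18.5 CPM with LPS and IFNg. In unstimulated cells at 18 h it was 0.466 CPM, and with IL-4 at 18 h 1.06 CPM.

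**Figure D2:**
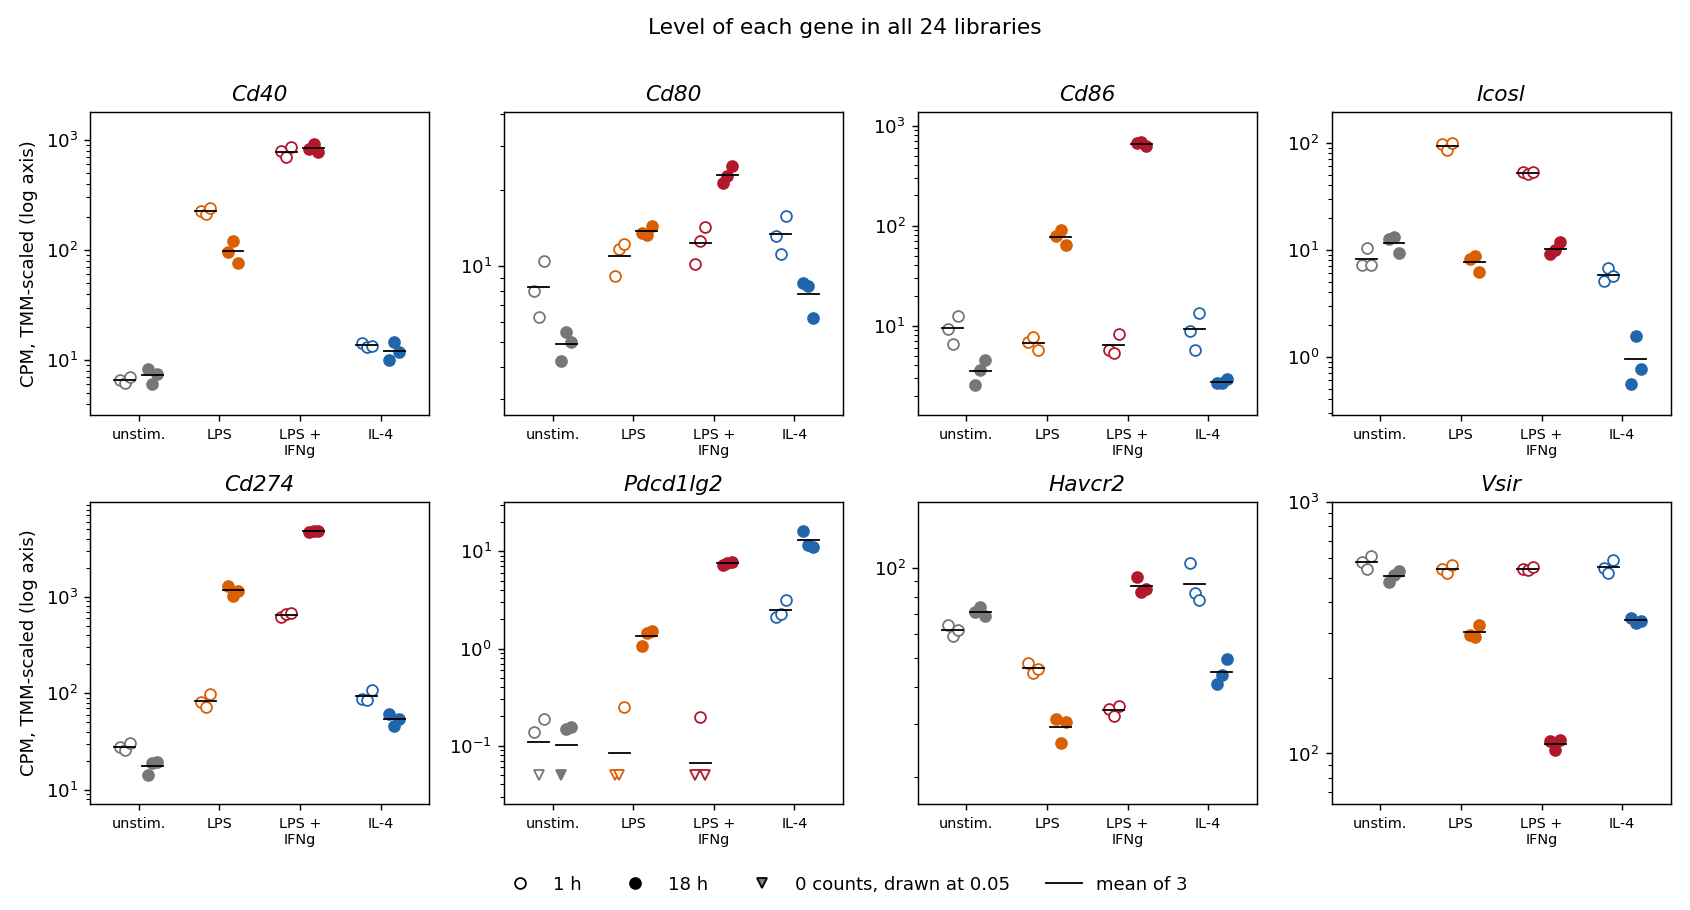
TMM-scaled CPM on a log axis (vertical) of each gene in all 24 libraries by stimulus (horizontal), at 1 h (open) and 18 h (filled), with the mean of 3 as a line; triangles are libraries with 0 counts. Icosl stands at 85.1 to 99.1 CPM after 1 h of LPS and 6.24 to 8.76 CPM after 18 h, Cd86 stands at 629 to 685 CPM after 18 h of LPS with IFNg, and Pdcd1lg2 is highest with IL-4 at 18 h.

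Havcr2, the TIM-3 receptor gene, changed sign with time and stimulus over a narrow range. Its libraries held 64.4, 59.2 and 62.0 CPM unstimulated at 1 h, 48.2, 44.5 and 46.0 CPM with LPS, 33.7, 32.1 and 34.5 CPM with LPS and IFNg, and 103.5, 82.3 and 78.0 CPM with IL-4. All 4 groups were separate, in the order IL-4, unstimulated, LPS, LPS with IFNg. The changes from unstimulated cells were -0.42 (SE 0.10, adjusted p = 0.0019), -0.89 (SE 0.10, adjusted p = 2.4e-08) and 0.51 (SE 0.09, adjusted p = 0.00015) for LPS, LPS with IFNg and IL-4. At 18 h the order was different: LPS with IFNg 93.3, 83.3 and 84.8 CPM, unstimulated 71.1, 73.8 and 69.1 CPM, IL-4 40.9, 43.9 and 49.6 CPM, and LPS 31.3, 26.1 and 30.6 CPM. LPS lowered it by 1.28 (SE 0.10, adjusted p = 4.6e-12) and IL-4 by 0.67 (SE 0.09, adjusted p = 9.9e-07). The level with LPS and IFNg was 0.29 above unstimulated cells (SE 0.09, adjusted p = 0.0053), and this direction depended on the scaling: with the total count alone it was -0.25 (adjusted p = 0.019), with the median of all genes at -0.54. The contrast with LPS alone kept its direction and its call in all 13 alternatives (log2 change 1.57 here, SE 0.10, adjusted p = 1.1e-13; 1.45 to 1.62 in the alternatives).

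Vsir was the highest of the genes per length in unstimulated cells and fell at 18 h under every stimulus. At 1 h the libraries of the 4 groups overlapped: 543 to 611 CPM unstimulated, 520 to 562 CPM with LPS, 535 to 548 CPM with LPS and IFNg, and 519 to 589 CPM with IL-4. None of these 1 h changes was called, the largest being -0.09 (SE 0.06, adjusted p = 0.37) with LPS; with scaling to the total count, LPS (-0.28, adjusted p = 0.00083) and LPS with IFNg (-0.35, adjusted p = 3.4e-05) became calls, with the median of all genes at -0.19 and -0.25. At 18 h unstimulated libraries gave 479, 512 and 529.5 CPM, IL-4 346, 331 and 337 CPM, LPS 295, 291 and 323 CPM, and LPS with IFNg 112, 103 and 113 CPM. The 4 groups were separate. The decreases were -0.59 (SE 0.06, adjusted p = 2.1e-08) with IL-4, -0.74 (SE 0.07, adjusted p = 4.2e-11) with LPS, and -2.21 (SE 0.07, 4.64-fold lower, adjusted p = 7e-22) with LPS and IFNg. Vsir lies within the span of Cdh23 on the other strand without sharing an exon base, and Cdh23 had at most 14 counts in any library.

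The order of the genes by level per kb of exon changed with the stimulus. In unstimulated cells at 18 h Vsir led with 101 ± 5.15 (SD, n = 3) CPM per kb, ahead of Havcr2 (26.2 ± 0.867) and Cd274 (4.83 ± 0.780). After 18 h of LPS with IFNg Cd274 led with 1318 ± 18.5 CPM per kb, followed by Cd40 (247.5 ± 22.7), Cd86 (179.9 ± 7.68), Havcr2 (32.0 ± 1.99) and Vsir (21.8 ± 1.09). After 18 h of IL-4 the order was Vsir, Havcr2, Cd274 and Pdcd1lg2, with 67.4, 16.5, 14.9 and 6.65 CPM per kb, and Icosl was last with 0.208 CPM per kb. The ratio of Cd274 to Vsir per length lay between 0.0411 and 0.0512 in unstimulated libraries at 18 h, between 4.92 and 6.11 with LPS, between 58.4 and 64.1 with LPS and IFNg, and between 0.193 and 0.247 with IL-4.

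**Figure D3:**
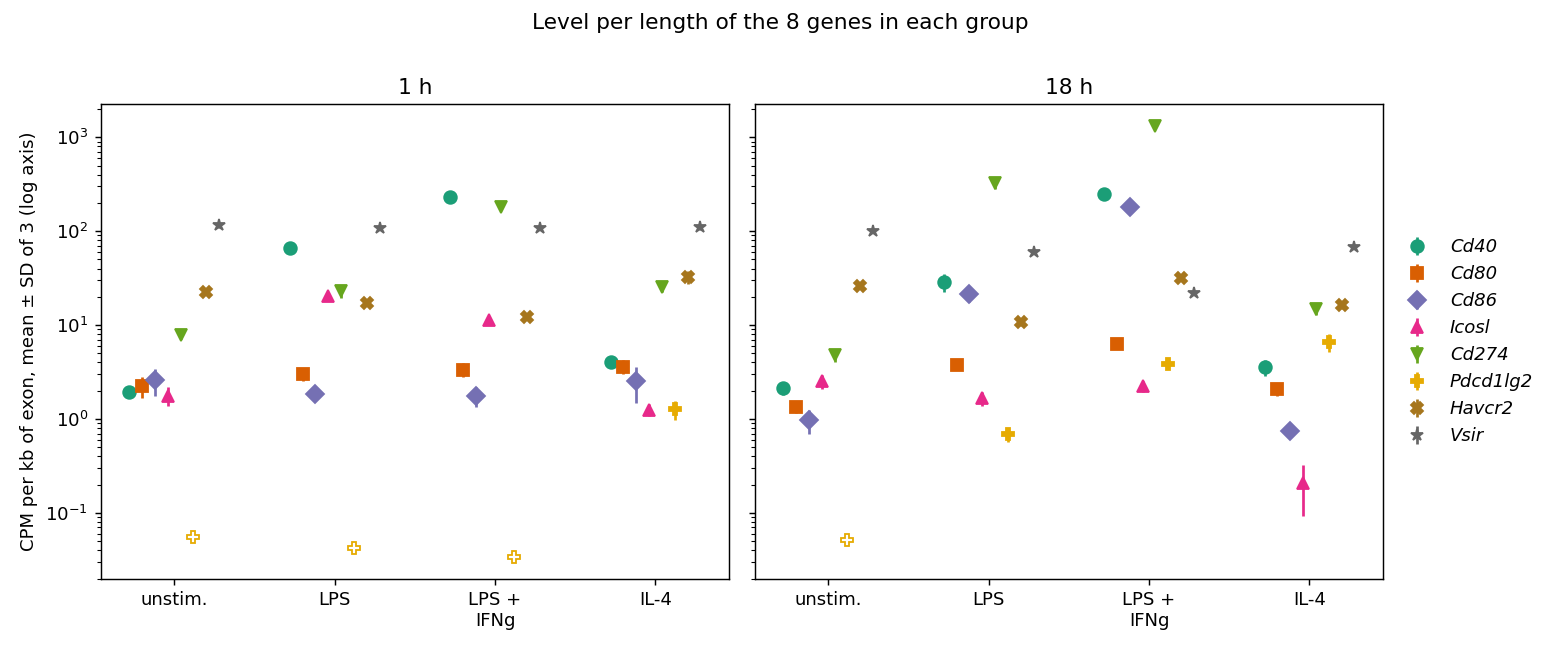
CPM per kb of exon on a log axis (vertical; mean ± SD of 3 libraries) of the 8 genes in each stimulus group (horizontal) at 1 h and 18 h; open symbols without bars are Pdcd1lg2 in groups with 1 or 2 counts in all. Vsir leads in unstimulated and IL-4 cells at both times and in LPS at 1 h, Cd40 in LPS with IFNg at 1 h (229.8) and Cd274 in LPS with IFNg at 18 h (1318).

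The difference between LPS with IFNg and LPS alone, called here the effect of added IFNg, changed between the times. Whether the LPS dose was the same in these groups is not given, so dose cannot be told apart from IFNg or time. At 1 h the cells with both stimuli had higher Cd40 (1.79, SE 0.11, adjusted p = 4.1e-14) and Cd274 (2.97, SE 0.11, adjusted p = 1.2e-18) and lower Icosl and Havcr2 (-0.47, SE 0.11, adjusted p = 0.0023) than cells with LPS alone, so 4 genes were called where 11.8% of tested genes were (6.52% higher, 5.25% lower). At 18 h 6 genes were higher and 1, Vsir (-1.47, SE 0.07, adjusted p = 8.6e-17), was lower, with 47.4% of tested genes called (24% higher, 23.4% lower). The 6 include Pdcd1lg2, which passed the filter only through its high groups. The higher genes at 18 h were Cd40 (3.11, SE 0.11), Cd86 (3.09, SE 0.13), Pdcd1lg2 (2.48, SE 0.30), Cd274 (2.03, SE 0.10), Havcr2 (1.57, SE 0.10) and Cd80 (0.74, SE 0.15), with adjusted p values between 1.8e-19 and 0.00018. Icosl was not called at 18 h (0.40, SE 0.19, adjusted p = 0.088). Tests of the difference between the times, in which 35% of tested genes were called, compared the signed log2 changes with added IFNg. The signed value was higher at 18 h for Cd86 (3.15, SE 0.34, adjusted p = 1.1e-08), Havcr2 (2.04, SE 0.15, adjusted p = 5.1e-12), Cd40 (1.32, SE 0.15, adjusted p = 4e-08) and Icosl (1.24, SE 0.22, adjusted p = 5.4e-05). For Cd274 the rise was smaller at 18 h (-0.93, SE 0.15, adjusted p = 9e-06). For Vsir the effect was 0.0016 at 1 h and a decrease at 18 h (difference -1.47, SE 0.10, adjusted p = 3.7e-13). For Havcr2 and Icosl the effect was negative at 1 h, and at 18 h it was positive for Havcr2 and not called for Icosl. Tested in the same way, the response differed between the times for 7 of the 8 genes with LPS (54.2% of tested genes called), for 7 with LPS and IFNg (64%) and for 3, Icosl, Havcr2 and Vsir, with IL-4 (21.5%). The 7 with LPS and IFNg include Pdcd1lg2, whose call rests on groups of 1 or 2 counts. In the test of the added IFNg effect between the times, Cd80 was not called (0.56, SE 0.24, adjusted p = 0.068). It was called there without LPS 1 h replicate 1 (0.67, adjusted p = 0.042) or LPS with IFNg 1 h replicate 3 (0.69, adjusted p = 0.037).

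IL-4 and LPS with IFNg, the stimuli of the alternative and classical activation states, were also compared directly. At 1 h 2 genes were higher with IL-4, Pdcd1lg2 and Havcr2 (1.40, SE 0.10, adjusted p = 6.9e-13), and 3 were lower, Cd40, Cd274 and Icosl, with 30.4% of tested genes called (14.8% higher, 15.6% lower). The Pdcd1lg2 call at 1 h rests on 1 count in all with LPS and IFNg. At 18 h Pdcd1lg2 and Vsir (1.63, SE 0.07, adjusted p = 9e-19) were higher with IL-4 and the other 6 were lower, with 73.9% of tested genes called (37.2% higher, 36.7% lower). Pdcd1lg2 is counted at both times, although it passed the filter only through its high groups. The decreases at 18 h ran from -7.90 for Cd86 (SE 0.19) and -6.09 for Cd40 (SE 0.14) to -0.96 for Havcr2 (SE 0.09). Scaling to the total count called all 8 genes at 1 h, adding increases of Cd80, Cd86 and Vsir, with the median of all genes at 0.26. The Cd86 difference at 1 h (0.51, SE 0.26, adjusted p = 0.15) was also called without the filter on low counts (adjusted p = 0.034) and without IL-4 replicate 2 (0.73, adjusted p = 0.026).

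Unstimulated cells also differed between the times for 3 genes, where 12% of tested genes were called (4% higher, 8.01% lower). Cd86 was lower at 18 h than at 1 h by 1.37 on the log2 scale (SE 0.28, adjusted p = 0.0012), Cd80 by 0.72 (SE 0.21, adjusted p = 0.02) and Cd274 by 0.67 (SE 0.15, adjusted p = 0.0026), and the 18 h libraries of each lay below those at 1 h. The Cd80 call was lost without unstimulated 1 h replicate 1 (-0.73, adjusted p = 0.053) or 3 (-0.54, adjusted p = 0.15), or 18 h replicate 1 (-0.63, adjusted p = 0.1). The count of called genes was 5 of 8 without unstimulated 1 h replicate 2, when Icosl (0.70, adjusted p = 0.016) and Vsir (-0.22, adjusted p = 0.037) were called as well. Icosl, not called with all libraries (0.50, SE 0.18, adjusted p = 0.064), was also called without unstimulated 18 h replicate 3 (0.64, adjusted p = 0.022) and by DESeq2 (0.51, adjusted p = 0.049).

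Genes of the pathways around the members were listed by function. Of 14 genes of CD40 signalling, 11 were higher and none lower after 1 h of LPS, with a median log2 change of 0.98, against 10.8% higher and 11.4% lower of all tested genes. After 18 h of LPS with IFNg 14 of 14 were higher, with a median of 1.53, against 36.1% of all tested genes. The medians of all tested genes in these comparisons were -0.0020 and -0.0046. Traf1, an adaptor that binds CD40, rose from 6.79 to 146 CPM at 1 h of LPS (log2 change 4.42, SE 0.13) and from 5.53 to 278 CPM at 18 h of LPS with IFNg (5.64, SE 0.13). Tnfaip3, a deubiquitinase that restrains NF-kB, rose from 44.6 to 2180 CPM at 1 h of LPS (5.62, SE 0.10). With IL-4 at 18 h 3 of the 14 were higher and 6 lower, against 19% and 20.1% of all tested genes, with Traf5 up by 2.24 (SE 0.15) and Map3k14, the kinase of the non-canonical NF-kB pathway, lower by 0.92 (SE 0.11).

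Of 10 genes of IFNg signalling, 9 were higher and 1 lower after LPS with IFNg at both times. Of all tested genes, 29.4% were called at 1 h and 72.2% at 18 h. The list also moved without IFNg. At 18 h 8 were higher and 1 lower with LPS alone (63.1% of all tested genes called). With IL-4 at 18 h 6 were higher and 3 lower (39.2%). Irf1, a transcription factor induced by IFNg, stood at 41.2 CPM unstimulated, 664 CPM with LPS and 2973 CPM with LPS and IFNg at 1 h, and at 34.2, 173 and 1832 CPM at 18 h. Socs1, a feedback inhibitor of JAK kinases, rose with IL-4 from 3.63 to 158 CPM at 1 h (5.42, SE 0.15) and with LPS and IFNg to 256 CPM (6.12, SE 0.14). Of 12 genes of IL-4 signalling and its targets, 7 were higher and none lower after 1 h of IL-4 (6.49% of all tested genes called). After 18 h of IL-4 7 were higher and 3 lower (39.2%). These changes were not particular to IL-4. At 18 h 7 of the 12 were higher and 3 lower with LPS (63.1%), and 8 higher and 3 lower with LPS and IFNg (72.2%). Arg1, encoding arginase, rose from 9 counts in all to 619 CPM after 18 h of IL-4 and also to 173 CPM after 18 h of LPS.

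The TNF family holds further costimulatory ligands, 5 of 8 listed passing the filter. Tnfsf9 (4-1BB ligand) rose from 4.96 to 1295 CPM after 1 h of LPS (8.02, SE 0.13, adjusted p = 6.2e-28) and to 695 CPM with LPS and IFNg (7.13, SE 0.13), and stood at 7.73 CPM after 18 h of LPS. Tnfsf4 (OX40 ligand) went from 2 counts in all to 54.1 CPM (725 counts) after 1 h of LPS and was at 2.24 CPM at 18 h. Like Icosl, both were higher at 1 h than at 18 h of LPS. The list did not move as 1. Of the 5, 3 had a lower log2 change with LPS at 18 h than at 1 h, 1 had a higher one and 1 was not called (54.2% of all tested genes called). Against unstimulated cells, 3 were higher and none lower at 1 h of LPS (22.2%), and 2 higher and 1 lower at 18 h (63.1%). Among 15 tested genes of other inhibitory pairs, 7 were higher and none lower at 1 h of LPS (22.2% of all tested genes called), and 9 were higher and 4 lower at 18 h (63.1%). With LPS and IFNg at 18 h 7 were higher and 7 lower (72.2%). Lgals9, encoding galectin-9, a ligand of TIM-3, rose from 90.8 to 816 CPM at 18 h of LPS (3.17, SE 0.09, adjusted p = 3.3e-23) and to 679.6 CPM with LPS and IFNg. Fgl2, a secreted inhibitor of T cells, rose from 5.16 to 329 CPM with LPS (5.99, SE 0.14) and to 1680 CPM with LPS and IFNg (8.34, SE 0.14). Ceacam1, encoding a surface protein that binds TIM-3, fell from 12.2 to 1.90 CPM with LPS and IFNg (-2.64, SE 0.22, adjusted p = 5.8e-12). Only 2 of 8 listed genes of the remaining B7 and butyrophilin families passed the filter, and Cd276, encoding B7-H3, fell at 18 h from 36.0 to 16.8 CPM with LPS (-1.10, SE 0.12, adjusted p = 2.9e-09) and to 8.98 CPM with LPS and IFNg (adjusted p = 2.9e-14).

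Of 8 genes that govern the surface turnover of CD86 and PD-L1, 5 were higher and 2 lower after 18 h of LPS with IFNg, a share called close to the 72.2% of all tested genes. March1, a ubiquitin ligase that removes CD86 from the surface, rose from 30.8 CPM to 237 CPM with LPS (2.94, SE 0.09, adjusted p = 1.6e-21) and to 214 CPM with LPS and IFNg (2.80, SE 0.09), at the time when Cd86 mRNA was highest. Cd83, whose protein opposes March1, peaked at 1 h with 1538 CPM after LPS and 1952 CPM after LPS with IFNg, and at 18 h stood at 8.45 CPM with LPS, below the 35.1 CPM of unstimulated cells (-2.07, SE 0.21, adjusted p = 8.2e-10), and at 100.6 CPM with LPS and IFNg. These are mRNA levels, and surface protein was not measured in these files.

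Markers of other cells were checked because dendritic cells and B cells also express these ligands. The 8 dendritic cell markers, 4 of which passed the filter, summed to 13.7 to 20.0 CPM after 18 h of LPS. They summed to 39.0 to 57.1 CPM after 18 h of LPS with IFNg and to between 2.49 and 11.6 CPM in all other groups. These 18 h groups also had the highest mean Cd86, Cd80 and Cd274. At 1 h the sum was 5.38 to 6.86 CPM with LPS and IFNg, where Cd274 stood at 623 to 678 CPM. With LPS at 1 h it was 9.66 to 11.6 CPM, where Cd274 stood at 71.4 to 98.6 CPM. Ccr7, a receptor also induced in activated macrophages, made up most of the sum in LPS with IFNg at 18 h. It stood there at 32.0 ± 6.87 CPM (SD, n = 3), against 0.942 CPM in unstimulated cells. Xcr1 stood at 8.34 against 0.157 CPM, Clec9a at 4.84 against 0.308 CPM, Dpp4 at 1.53 against 0.479 CPM and Zbtb46 at 1.31 against 0.419 CPM. Flt3 stood at 0.241 against 1.09 CPM, Siglech at 0.115 against 0.850 CPM and Itgae at 0.356 against 0.204 CPM. None of the 8 was at 0 in any group, and their part in the results was not tested. B cell markers summed to at most 25.9 CPM, in LPS at 18 h. They summed to at most 7.40 CPM in LPS with IFNg at 18 h, where Cd86, Cd80 and Cd274 were highest. Neutrophil markers reached the highest sum of the lists other than macrophage, 25.15 to 164.8 CPM per library. They summed to 25.15 to 46.4 CPM in LPS with IFNg at 18 h, and 2 of the 7 were under 1 CPM in every group. NK cell, mast cell and basophil, and fibroblast markers summed to at most 1.41, 5.46 and 7.565 CPM. The T cell markers summed to 6.83 to 70.2 CPM per library, and 5 of 8 were under 1 CPM in every group. Cd28, the receptor of CD80 and CD86, was itself present at 34.0 CPM in unstimulated cells at 18 h. With LPS and IFNg at 18 h it stood at 2.42 CPM. Cd4 went from 2.69 to 1.88 CPM between the same groups. Lck went the other way, from 0.360 to 4.03 CPM at 18 h and from 0.207 to 14.2 CPM at 1 h. In these bulk samples fewer cells of a type and less RNA per cell cannot be told apart.

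Over the 24 libraries, which share 8 groups, the log2 CPM of some members went together. Havcr2 went closely with no other member (Pearson r from -0.29 with Cd40 to 0.21 with Pdcd1lg2). Cd274 went with Cd80 (Pearson r = 0.86), Cd86 (0.85) and Cd40 (0.83), Vsir ran against Cd86 (-0.85) and Cd274 (-0.74), and Pdcd1lg2 ran against Icosl (-0.73) while its r with Cd274 was 0.36. The genes most like each member by this measure were Ptgs2, Klf6 and Irf1 for Cd40 (r 0.98 to 0.99), Ctsh, Kpna4 and Ubap1 for Cd86 (0.98 to 0.99), Gbp2, Pgs1 and Fcgr3 for Cd274 (0.97) and Gas6, Camk1 and Agap1 for Vsir (0.99). Those for the other members were Mtm1, Prr13 and Arpc5 for Cd80 (0.90 to 0.91), Flrt2, Rars and Hsph1 for Pdcd1lg2 (0.92 to 0.98), Nlrp3, Plscr1 and Fam177a for Icosl (0.92 to 0.95) and Fbxo45, Hus1 and Casp2 for Havcr2 (0.81 to 0.83). These values describe the differences between the groups as much as any single library and carry no test. By Spearman correlation, which uses only the order of the libraries, the places differed. For Vsir, Gas6 (0.75), Camk1 (0.86) and Agap1 (0.79) stood at places 468, 119 and 339 of 9650. For Icosl, Nlrp3 (0.73) stood at place 66, while Flrt2 stayed at place 1 for Pdcd1lg2 (0.90).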

How the data were processed

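Poly(A) RNA of 24 macrophage libraries was sequenced with a stranded mRNA kit, per the labels' protocols. The deposited values are raw read counts per Ensembl gene, made by the authors with STAR and featureCounts on GRCm38, per the submitters' processing notes, which also name DESeq2 and deepTools; versions and the strand setting are not given in the sources used here. Of 43629 identifiers, 42462 matched GENCODE M21. Totals ran from 4181890 to 8122945 counts, and no pair of replicates was identical.

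Counts were tested with edgeR 4.0.16 (R 4.3.3): TMM factors (0.8 to 1.18), filterByExpr with a minimum count of 10, which left 12765 genes, and 1 quasi-likelihood fit over all 8 groups with Benjamini-Hochberg adjustment over the tested genes (threshold 0.05). SEs were derived from the F statistic. There were 11 comparisons of groups and 4 contrasts between times. Scripts were tested on simulated data. Where a group held 3 counts or fewer, ratios of summed counts with exact 95% intervals were used. Levels per kb used union exons of GENCODE M21.

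The members and the gene lists were chosen with earlier results of these data known. Named genes were the 8 members, from each list up to 4 called genes with the largest change in a comparison, the 3 genes most correlated with each member (mean of at least 5 CPM, log2 CPM with a prior count of 2), overlapping genes and markers. Alternatives were median-of-ratios and library-size scaling, no filter, the compared groups only, a replicate block, leaving out each library, and DESeq2 1.42.0; leaving out 2 pairs of libraries was chosen after seeing the data. The result of 1 further motif search is not reported here. The labels do not say that replicate numbers pair libraries; same-numbered deviations correlated by 0.133 to 0.231 between IL-4 and unstimulated cells at 1 h, and in each other comparison at least 1 pair was at or below 0.1.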

Additional observations from a re-analysis of the deposited data

Results flagged for a closer look

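Responses to a stimulus differed between the times for 23 combinations of gene and contrast, by an interaction term in edgeR's quasi-likelihood test over all tested genes; values are the log2 change at 18 h minus that at 1 h. For LPS, called for 54.2% of all tested genes, the differences were 4.88 for Cd86, 4.48 for Cd274 and 1.05 for Cd80, and -4.10 for Icosl, -1.36 for Cd40, -0.86 for Havcr2 and -0.65 for Vsir. For LPS with IFNg (64% of tested genes called) they were 8.03 for Cd86, 3.54 for Cd274, 1.61 for Cd80 and 1.18 for Havcr2, and -2.86 for Icosl and -2.12 for Vsir. The value of 6.48 for Pdcd1lg2 in that contrast, counted among the 23, rests on groups of 1 or 2 counts and is no measure of size. For IL-4 (21.5% called) all 3 were negative, at -2.98 for Icosl, -1.19 for Havcr2 and -0.52 for Vsir. For the effect of IFNg added to LPS (35% called) they were 3.15 for Cd86, 2.04 for Havcr2, 1.32 for Cd40 and 1.24 for Icosl, and -0.93 for Cd274 and -1.47 for Vsir. Havcr2 had opposite signs at the 2 times with LPS and IFNg (-0.89 and 0.29) and with IL-4 (0.51 and -0.67). With library-size scaling the 18 h value with LPS and IFNg was -0.25, so its sign depended on that choice.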

How the results depend on the processing

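Of the log2 changes of the 8 genes under the alternatives, 1671 kept their direction and side of the threshold, 28 became calls, 10 ceased to be calls and 37 changed sign. With library-size scaling, calls over all genes went from 2837 to 4443 for LPS at 1 h (895 higher, 3548 lower), from 3755 to 6342 for LPS with IFNg at 1 h (1088 higher, 5254 lower) and from 3875 to 6599 for IL-4 against LPS with IFNg at 1 h (5512 higher, 1087 lower). At 18 h that scaling gave 2079 higher and 6984 lower for LPS, and 2475 and 7617 for LPS with IFNg. Called members went from 5 to 8 for IL-4 against LPS with IFNg at 1 h and from 3 to 5 between the times in unstimulated cells, and Havcr2 with LPS and IFNg at 18 h turned to -0.25. The uncalled Vsir value of LPS with IFNg against LPS at 1 h (0.0016) was -0.0154 with median-of-ratios scaling, -0.0725 with library sizes, -0.0137 with the compared groups only and -0.0152 with DESeq2, and Cd86 with IL-4 at 1 h was 0.0035 with the compared groups only; the cause was not tested.

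Leaving out 1 library gave ranges that crossed 0 for uncalled values: Pdcd1lg2 with LPS at 1 h (-2.58 to 0.16), with IFNg added at 1 h (-2.20 to 2.01) and between unstimulated times (-0.51 to 0.48); Cd86 with IFNg added at 1 h (-0.29 to 0.0441) and with IL-4 at 1 h (-0.32 to 0.21); Vsir with IFNg added at 1 h (-0.0263 to 0.0307) and IL-4 against LPS with IFNg at 1 h (-0.0204 to 0.0696); Cd80 in the latter (-0.009 to 0.24) and in the IL-4 response between times (-0.24 to 0.10); and Cd40 in the LPS with IFNg response between times (-0.16 to 0.0545). For unstimulated cells between the times, called members ranged from 2 to 5 and genes from 863 to 1546 (1533 with all): 997 without 1 h replicate 1, 872 without 1 h replicate 3, 863 without 18 h replicate 1 and 984 without 18 h replicate 2.

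Deviations of same-numbered libraries correlated by more than 0.1 in 34 of 84 pairs (lowest -0.091), and 21 of 24 libraries correlated best with their own number, a hint of pairing from the data, not the design. All 3 pairs were above 0.1 in 1 of 11 comparisons, IL-4 at 1 h, where the block kept 5 members called and moved the genes called from 829 to 959. With the replicate block in all comparisons, calls over all genes were 1.015 to 1.313 times as many, and Vsir between unstimulated times (-0.18, adjusted p = 0.02) and Cd80 in the effect of added IFNg between times (0.57, adjusted p = 0.043) became calls in edgeR's test. Depth limits Pdcd1lg2, with at most 2 counts in 4 groups, and Icosl after 18 h of IL-4, with 23 counts.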
